A study of Mus musculus with 12 samples.

Results

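The integrin and laminin genes were taken as every row whose symbol is a numbered or lettered integrin alpha or beta chain, or a numbered laminin alpha, beta or gamma chain. Of 24060 gene rows, 37 met this rule, 26 integrins and 11 laminin chains. The integrins were divided into 19 adhesion integrins and 7 leukocyte integrins. All values are from total RNA of 12 tumors that arose in mice of the P0-CreC;Smarcb1 flox/flox genotype on the FVB/N background, in which Cre is expressed in early neural crest cells and the Schwann cell lineage and both floxed copies of Smarcb1, a subunit of the SWI/SNF chromatin remodeling complex, are open to deletion. According to the labels 4 tumors were retro-orbital, 3 came from the cheek, 3 from the meninges, 1 from the vestibular nerve and 1 from the trigeminal nerve. No agent was given, and ages are not in the labels. All 12 tumors carry the same genotype, no tissue with intact Smarcb1 was analysed here, and Smarcb1 itself, which lay between 1.70 and 6.31 RPKM, therefore gives no check of the deletion. A tumor as dissected also holds vessels, leukocytes and neighboring tissue, so that fewer cells of a type and less RNA per cell cannot be told apart.

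Tumor names begin with an identifier that is the same in cheek 2 and cheek 3, in cheek 1 and meninges 1, and in retro-orbital 3 and the trigeminal nerve tumor. The labels do not say if an identifier stands for 1 animal. Cheek 2 and cheek 3 had the closest member values of all tumor pairs, with a median absolute difference of 0.18 on the log2(RPKM + 1) scale over the 37 genes. The other pairs that share an identifier were less alike, with 0.59 for cheek 1 and meninges 1 and 0.97 for retro-orbital 3 and the trigeminal nerve tumor. The fragment numbers of cheek 2 and cheek 3 differed by a chi-square of 57.0 per degree of freedom, a test against counting error only, so that they were not treated as 1 library. Each was counted as 1 sample, and whether they are independent tumors cannot be told from these values. The fragment totals behind the values ranged from 13206168 in cheek 3 to 57128419 in retro-orbital 3. Numbers after a location only name tumors and have no order.

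Integrins are receptors of the cell surface made of 1 alpha and 1 beta chain, which bind proteins of the extracellular matrix or of other cells and link them through talin and kindlin to the actin cytoskeleton. Laminins are cross-shaped proteins of basement membranes, each made of 1 alpha, 1 beta and 1 gamma chain. Schwann cells, vessels, muscle fibers and epithelia each lie on a basement membrane with its own mix of laminins and attach to it through their own mix of integrins, whereas the beta2 and beta7 integrins are receptors of leukocytes.

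The members covered a wide span of levels, here given in RPKM, which is per kilobase of transcript and so allows different genes to be compared. Of the 37 genes, 21 reached 1 RPKM in all 12 tumors and Lamc3 in none. Itgb1 had the highest median, 207.5 RPKM, followed by Lamb2 with 89.5, Itgb5 with 70.3, Itgav with 56.9 and Lamc1 with 30.3 RPKM. These 5 genes varied 2.49 to 4.32 times between their lowest and highest tumor. Other members rested mainly on 1 or a few tumors: Itga8 was 20.8 times higher in retro-orbital 2 than in the next tumor, and Lamb1 was 9.02 times higher in meninges 2 than in the next.

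**Figure D1:**
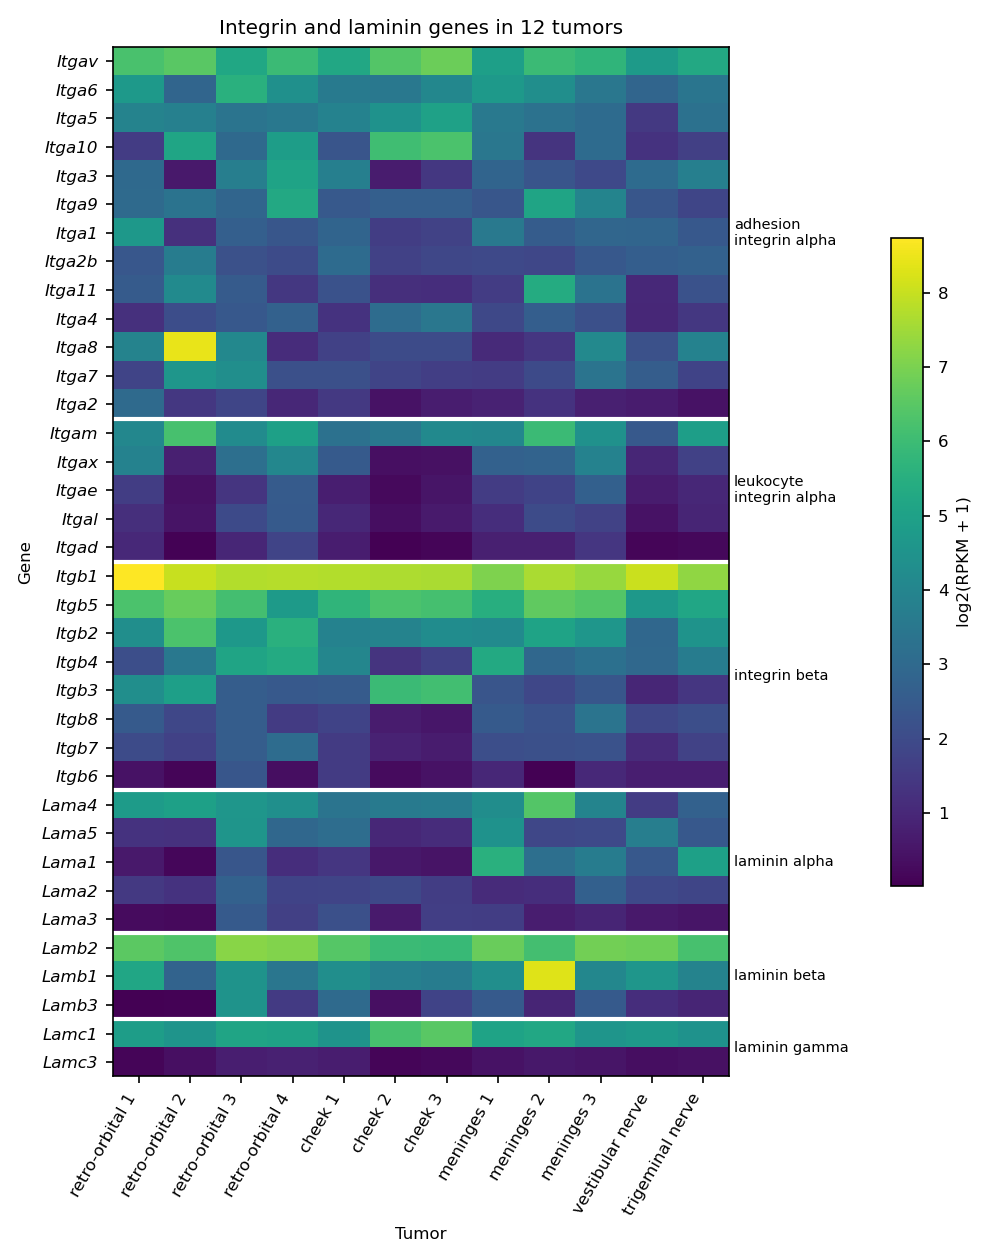
Level of 36 of the 37 genes (rows, grouped by family and sorted by median) in each of the 12 tumors (columns), with color giving log2(RPKM + 1). Itgb1 is bright in all 12 columns, from 130.4 RPKM upward, while Itga8 is bright in retro-orbital 2 alone (344.9 RPKM) and Lamb1 in meninges 2 alone (316.3 RPKM).

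Among the integrin beta chains, Itgb1, the partner of most alpha chains, led in every tumor. It reached 427, 259, 214 and 217 RPKM in retro-orbital tumors 1 to 4, 211, 204 and 197 in cheek tumors 1 to 3, 130.4, 196 and 169 in meninges tumors 1 to 3, 263 in the vestibular nerve tumor and 156 in the trigeminal nerve tumor. Its share of the summed RPKM of the 8 beta chains was 53.5% to 85.8%. All 12 tumors had more Itgb1 than Itgb5, by a mean of 1.86 on the log2(RPKM + 1) scale (SD 0.76, exact sign-flip permutation test, n = 12, adjusted p = 0.00610 over 25 neighboring pairs). Of these 25 steps in the order of medians 7 passed the test. The order was taken from the same 12 tumors, so the pairs and their direction were not set beforehand. When the median difference was tested instead 0 passed, each of the 7 then having an adjusted p of 0.0558 (exact sign-flip permutation test). All 7 had reached the smallest p that the median test can give with n = 12, which adjusts to this value here. The median test therefore cannot decide whether these steps hold.

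Itgb5, a partner of the alpha v chain, measured 75.7, 104, 69.4 and 26.3 RPKM across the retro-orbital tumors, 52.0, 76.1 and 71.1 across the cheek tumors, 43.5, 97.3 and 83.9 across the meninges tumors, 24.5 in the vestibular and 34.9 in the trigeminal nerve tumor. It exceeded Itgb2, the common chain of the leukocyte integrins, in 11 of 12 tumors (mean difference 1.35, SD 0.86, exact sign-flip permutation test, adjusted p = 0.00814). The exception was retro-orbital 4. From Itgb2 downward, the neighbors in the order of medians were Itgb4, Itgb3, Itgb8 and Itgb7, and none of these steps passed the test over all tumors. The step from Itgb2 to Itgb4 had an adjusted p of 0.0719 (exact sign-flip permutation test, n = 12), and of 0.0366 without meninges 1 (0.0366 to 0.144 over its alternatives).

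Itgb4, which pairs with the alpha6 chain in the hemidesmosomes of epithelia and on Schwann cells, was found at 3.33, 10.4, 34.0 and 39.5 RPKM across the retro-orbital tumors, 15.3, 1.52 and 2.27 across the cheek tumors, 39.1, 6.72 and 8.55 across the meninges tumors, 6.90 in the vestibular and 11.8 in the trigeminal nerve tumor. High levels, above 30 RPKM, occurred in retro-orbital 3, retro-orbital 4 and meninges 1, and the lowest ones in cheek 2 and cheek 3. The 3 locations with several tumors overlapped.

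Itgb3 is the beta chain of the alpha v beta3 vitronectin receptor and of the platelet receptor. Values were 19.1, 29.8, 5.08 and 4.49 RPKM in retro-orbital tumors 1 to 4, 4.79, 62.1 and 68.3 in cheek tumors 1 to 3, 3.96, 2.68 and 4.10 in meninges tumors 1 to 3, 0.956 in the vestibular nerve tumor and 1.67 in the trigeminal nerve tumor. Cheek 2 and cheek 3 were highest, followed by retro-orbital 2 and retro-orbital 1, and no other tumor exceeded 5.08 RPKM. Cheek 1 was well below the other cheek tumors at 4.79 RPKM.

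Itgb8, which binds latent TGF-beta together with the alpha v chain, was measured at 4.67, 2.68, 5.05 and 1.91 RPKM across the retro-orbital tumors, 2.44, 0.614 and 0.465 across the cheek tumors, 4.61, 3.64 and 9.45 across the meninges tumors, 2.65 in the vestibular and 3.33 in the trigeminal nerve tumor. Meninges 3 was highest, and cheek 2 and cheek 3 were lowest. Itgb6, an epithelial beta chain, stayed between 0.015 and 4.14 RPKM, at or above 1 RPKM in 3 tumors, with 2 fragments behind its lowest value.

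Itgav, whose product binds the RGD motif of vitronectin and fibronectin, was the leading adhesion alpha chain in 10 of 12 tumors. It was found at 74.3, 90.8, 36.3 and 62.2 RPKM in retro-orbital tumors 1 to 4, 37.2, 83.4 and 108 in cheek tumors 1 to 3, 29.7, 61.9 and 51.9 in meninges tumors 1 to 3, 26.4 in the vestibular nerve tumor and 37.6 in the trigeminal nerve tumor. The next chain in the order of medians, Itga6, was lower in 11 of 12 tumors, by a mean of 1.79 on the log2(RPKM + 1) scale (SD 1.08, exact sign-flip permutation test, adjusted p = 0.00732). Below Itga6 the order ran through Itga5, Itga10, Itga3, Itga9, Itga1, Itga2b, Itga11, Itga4, Itga8 and Itga7, and no neighboring pair in this stretch passed the test (adjusted p between 0.416 and 0.962, exact sign-flip permutation tests).

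The laminin receptors differed in which tumor was highest. Itga6, the partner of Itgb1 or Itgb4, measured 25.4, 6.35, 45.7 and 19.9 RPKM across the retro-orbital tumors, 11.2, 10.3 and 15.7 across the cheek tumors, 25.9, 19.3 and 10.1 across the meninges tumors, 6.36 in the vestibular and 9.61 in the trigeminal nerve tumor. Retro-orbital 3 was the highest, and there Itga6 rather than Itgav was the leading alpha chain. Its relation with either partner across the tumors did not pass the test, with Pearson's r of -0.0064 for Itgb1 and 0.39 for Itgb4 (permutation tests, n = 12, adjusted p = 0.985 and 0.348). With the endothelial gene Pecam1 it had r = 0.69 and rho = 0.64 (permutation tests, n = 12, adjusted p = 0.0464 and 0.0994), but r was 0.41 without retro-orbital 3 and the vestibular nerve tumor (permutation p = 0.241), so the relation did not hold without those tumors. Its call was lost on leaving out any 1 of 9 tumors, all but retro-orbital 1, cheek 1 and meninges 1 (adjusted p of r up to 0.258), and in the 9 tumors with 1 tumor per identifier (r = 0.80, permutation test, adjusted p = 0.0529).

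Itga3, which binds laminins of epithelial basement membranes, ranged widely with 6.97, 0.54, 12.4 and 32.9 RPKM in retro-orbital tumors 1 to 4, 12.9, 0.6 and 1.73 in cheek tumors 1 to 3, 6.06, 4.04 and 2.82 in meninges tumors 1 to 3, 7.47 in the vestibular nerve tumor and 12.8 in the trigeminal nerve tumor. Retro-orbital 4 was highest, and retro-orbital 2 and cheek 2 were below 1 RPKM. Itga7, the main laminin receptor of skeletal muscle, measured 2.51, 23.4, 19.2 and 3.49 RPKM across the retro-orbital tumors, 3.42, 2.53 and 2.09 across the cheek tumors, 1.99, 2.95 and 9.28 across the meninges tumors, 5.05 in the vestibular and 2.42 in the trigeminal nerve tumor. It was highest in retro-orbital 2 and retro-orbital 3 and did not follow the muscle creatine kinase gene Ckm, which was 3.0 and 0.19 RPKM in those tumors and highest in cheek 2 with 24.0 RPKM (r = -0.27 across 12 tumors, permutation test, adjusted p = 0.583).

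Of the receptors for the RGD motif, Itga8, which binds nephronectin and fibronectin, stood out in 1 tumor. Its levels were 14.2, 345, 16.1 and 1.17 RPKM in retro-orbital tumors 1 to 4, 2.24, 3.0 and 3.0 in cheek tumors 1 to 3, 1.10, 1.62 and 16.5 in meninges tumors 1 to 3, 3.60 in the vestibular nerve tumor and 13.8 in the trigeminal nerve tumor. In retro-orbital 2 it supplied 61.8% of the summed RPKM of the 13 adhesion alpha chains, on 58626 fragments, and the remaining 11 tumors lay between 1.10 and 16.6 RPKM. A GENCODE antisense gene, E030013I19Rik, covers 5.05% of the Itga8 exon bases and had a median of 0.22 RPKM.

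Itga5, the alpha chain of the fibronectin receptor, was 14.0, 13.1, 9.42 and 10.4 RPKM across the retro-orbital tumors, 13.7, 21.1 and 31.0 across the cheek tumors, 10.6, 8.79 and 7.36 across the meninges tumors, 1.80 in the vestibular and 8.67 in the trigeminal nerve tumor. It was highest in cheek 3 and cheek 2 and lowest in the vestibular nerve tumor. Its ligand gene Fn1 showed 137, 574, 207 and 376 RPKM in retro-orbital tumors 1 to 4, 86.2, 864 and 1184 in cheek tumors 1 to 3, 123, 171 and 214 in meninges tumors 1 to 3, 11.9 in the vestibular nerve tumor and 74.4 in the trigeminal nerve tumor. The tumors with the most and the least Fn1 were also those with the most and the least Itga5, with r = 0.85 and rho = 0.55 across the tumors (permutation tests, n = 12, adjusted p = 0.00650 and 0.166). Without cheek 3 and the vestibular nerve tumor r was 0.49 (permutation p = 0.15), and without the vestibular nerve tumor alone it was 0.69 (permutation test, adjusted p = 0.0651), so the relation rests on these tumors. In the 9 tumors with 1 tumor per identifier r was 0.82 with an adjusted p of 0.0623 (permutation test).

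Itga2b, the alpha chain of the platelet fibrinogen receptor, varied 5.20 times, from 2.26 RPKM in cheek 2 to 11.7 in retro-orbital 2. Its partner Itgb3 was highest in cheek 2 and cheek 3, where Itga2b was among its lowest values, and the relation of both chains was weak (r = -0.12, permutation test, n = 12, adjusted p = 0.828). Among the platelet markers, Gp9 and Gp6 did not exceed 0.28 and 0.12 RPKM in any tumor and were listed at 0 in some, while Pf4, which macrophages also express, reached 53.1 RPKM in retro-orbital 2. Of the remaining markers, Ppbp was highest in cheek 1 with 3.59 RPKM and lowest in retro-orbital 2 with 0.063, and Gp1bb was highest in retro-orbital 1 with 3.31. Summed over the 5 markers, with Pf4 the largest part in retro-orbital 2, the level was 8.39 to 53.9 RPKM in retro-orbital, 12.4 to 45.3 in cheek and 2.35 to 5.22 in meninges tumors, and its part in the Itga2b and Itgb3 values was not tested.

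The collagen receptors were highest in different tumors, apart from Itga1 and Itga2, which shared retro-orbital 1. Itga10, the collagen receptor of cartilage, was found at 1.95, 34.7, 6.95 and 28.4 RPKM in retro-orbital tumors 1 to 4, 3.99, 66.3 and 75.4 in cheek tumors 1 to 3, 10.3, 1.53 and 7.42 in meninges tumors 1 to 3, 1.48 in the vestibular nerve tumor and 2.16 in the trigeminal nerve tumor. Cheek 2 and cheek 3 were highest, as they were for Itgb3, with retro-orbital 2 and retro-orbital 4 next. Part of the Itga10 exons, 33.5% of their bases, is also covered on the same strand by the GENCODE gene Gm42957, which has no row in the files.

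Itga11, a collagen receptor of fibroblasts, showed 4.80, 17.2, 4.70 and 1.68 RPKM across the retro-orbital tumors, 3.70, 1.28 and 1.23 across the cheek tumors, 1.95, 41.3 and 9.25 across the meninges tumors, 1.04 in the vestibular and 3.64 in the trigeminal nerve tumor. Here meninges 2 led, followed by retro-orbital 2. Itga1, which binds collagen IV, had 24.4, 1.32, 5.27 and 4.11 RPKM in retro-orbital tumors 1 to 4, 6.10, 2.01 and 2.32 in cheek tumors 1 to 3, 10.8, 4.93 and 6.40 in meninges tumors 1 to 3, 6.33 in the vestibular nerve tumor and 4.33 in the trigeminal nerve tumor, with retro-orbital 1 highest and retro-orbital 2 lowest.

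Itga2, the platelet and epithelial collagen receptor, gave 7.12, 1.73, 2.55 and 0.966 RPKM across the retro-orbital tumors, 1.79, 0.363 and 0.628 across the cheek tumors, 0.793, 1.48 and 0.719 across the meninges tumors, 0.609 in the vestibular and 0.358 in the trigeminal nerve tumor. It was highest in retro-orbital 1, as was Itga1, and below 1 RPKM in 7 tumors. No collagen receptor had its highest tumor in common with Itga10.

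The alpha4 and alpha9 chains bind VCAM-1, osteopontin or tenascin C. Itga4 was 1.34, 3.21, 4.33 and 5.56 RPKM in retro-orbital tumors 1 to 4, 1.48, 7.59 and 10.1 in cheek tumors 1 to 3, 2.79, 5.21 and 3.39 in meninges tumors 1 to 3, 1.01 in the vestibular nerve tumor and 1.73 in the trigeminal nerve tumor. It was highest in cheek 3 and cheek 2, which had the lowest Ptprc of all tumors but the vestibular nerve tumor. That tumor was lowest in both Ptprc (6.93 RPKM) and Itga4. Across the tumors Itga4 did not follow this pan-leukocyte gene (r = 0.15, permutation test, n = 12, adjusted p = 0.782). The r was 0.43 without cheek 3 and -0.091 without the vestibular nerve tumor. Itga9 was 7.18, 9.08, 6.31 and 38.3 RPKM across the retro-orbital tumors, 4.47, 5.26 and 5.31 across the cheek tumors, 4.12, 33.9 and 14.4 across the meninges tumors, 4.09 in the vestibular and 2.55 in the trigeminal nerve tumor, with retro-orbital 4 and meninges 2 high and every other tumor at 14.4 RPKM or below. Its ligand gene Tnc was 5.76 and 14.9 RPKM in those tumors and highest in retro-orbital 2 with 145.0, and r between the genes was 0.025 (permutation test, n = 12, adjusted p = 0.985).

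The leukocyte integrins are described apart. Itgb2 pairs with the products of Itgal (LFA-1 of all leukocytes), Itgam (Mac-1 of macrophages, microglia and neutrophils), Itgax and Itgad, and Itgb7 pairs with Itgae or Itga4 on T cells and some dendritic cells. The 7 genes summed to 56.4 to 153.3 RPKM in the retro-orbital tumors, 26.3 to 37.0 in the cheek tumors, 46.0 to 109.2 in the meninges tumors, 14.3 in the vestibular nerve tumor and 57.2 in the trigeminal nerve tumor. The 5 leukocyte markers summed to 155.6 to 440.5, 120.1 to 152.6, 163.4 to 277.5, 92.0 and 192.4 RPKM in the same order of locations. The macrophage genes Cd68 and Csf1r were present in all tumors at 26.4 RPKM or more, and the T cell gene Cd3e did not exceed 3.06 RPKM.

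Itgb2 gave 19.3, 76.9, 24.7 and 46.2 RPKM in retro-orbital tumors 1 to 4, 13.6, 14.3 and 18.2 in cheek tumors 1 to 3, 17.2, 32.4 and 23.3 in meninges tumors 1 to 3, 6.59 in the vestibular nerve tumor and 21.4 in the trigeminal nerve tumor. Retro-orbital 2 was highest and the vestibular nerve tumor lowest, an order that Itgam shared with 15.7, 72.7, 17.7 and 30.5 RPKM across the retro-orbital tumors, 8.77, 10.4 and 16.7 across the cheek tumors, 15.7, 61.1 and 20.6 across the meninges tumors, 4.53 in the vestibular and 29.1 in the trigeminal nerve tumor. Across the tumors r between Itgb2 and Itgam was 0.92 and rho 0.94 (permutation tests, n = 12, p = 3e-05, adjusted p = 0.00075 and 0.00025). It was 0.80 without retro-orbital 2 and the vestibular nerve tumor (permutation p = 0.00587) and 0.93 in the 9 tumors with 1 tumor per identifier.

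Itgb2 also rose and fell with Ptprc, the CD45 gene, across the tumors (r = 0.83, rho = 0.83, permutation tests, n = 12, adjusted p = 0.00608 and 0.0101). This relation was as large, r = 0.83, without retro-orbital 4 and meninges 2 (permutation p = 0.00187). Itgam was the leading leukocyte alpha chain in all 12 tumors, with 46.3% to 98.0% of their summed RPKM.

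Itgax, the CD11c gene of dendritic cells and activated macrophages, did not follow Itgb2 in a way that passed the test. Its values were 13.9, 0.744, 8.27 and 15.7 RPKM in retro-orbital tumors 1 to 4, 4.58, 0.3 and 0.339 in cheek tumors 1 to 3, 5.69, 5.97 and 13.9 in meninges tumors 1 to 3, 0.936 in the vestibular nerve tumor and 2.29 in the trigeminal nerve tumor. Retro-orbital 2, which had the most Itgb2 and Itgam, was among the 4 tumors below 1 RPKM, together with cheek 2, cheek 3 and the vestibular nerve tumor. The r of Itgax with Itgb2 was 0.23 over all tumors and 0.57 without retro-orbital 2 and the vestibular nerve tumor, which did not pass the test (permutation tests, adjusted p = 0.663 for n = 12 and unadjusted p = 0.0841 for the smaller set). Over all tumors rho was 0.43 (permutation test, adjusted p = 0.365). Without retro-orbital 2 alone r was 0.63, and the relation was not called on leaving out any 1 of the 12 tumors.

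Itgam exceeded Itgax in 12 of 12 tumors, by a mean of 2.08 on the log2(RPKM + 1) scale (SD 1.60, exact sign-flip permutation test, adjusted p = 0.00610). Itgax in turn exceeded Itgae in 11 of 12 tumors (mean difference 1.02, SD 0.75, exact sign-flip permutation test, adjusted p = 0.00610). The exception was cheek 3, where both were below 0.5 RPKM.

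Itgam and Itgax are neighbors on chromosome 7 of GRCm38, at chr7:128062640-128118491 and chr7:128129547-128150657 on the plus strand. A further GENCODE gene on that strand, Gm49368, covers 68.7% of the Itgam exon bases and has no row in the files. Their promoters are shown because both genes encode a partner of the same beta chain and yet differed in the tumors. The RefSeq promoter table (GRCm38.p6), which held 23 of the 37 genes, gives 250 bases before and 50 bases after each start. The letters searched were GAGGAA, a core of sites bound by the myeloid factor PU.1, on both strands, and capitals mark each match, read as TTCCTC where it is on the other strand. The first promoter is chr7:128062390-128062689 and the second chr7:128129300-128129599, both on the plus strand.
Itgam promoter: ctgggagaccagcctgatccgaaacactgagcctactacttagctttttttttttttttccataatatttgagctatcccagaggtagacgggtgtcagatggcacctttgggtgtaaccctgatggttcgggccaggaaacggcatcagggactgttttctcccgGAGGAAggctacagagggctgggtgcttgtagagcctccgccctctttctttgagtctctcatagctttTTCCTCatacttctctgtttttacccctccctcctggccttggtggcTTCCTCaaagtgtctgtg
Itgax promoter: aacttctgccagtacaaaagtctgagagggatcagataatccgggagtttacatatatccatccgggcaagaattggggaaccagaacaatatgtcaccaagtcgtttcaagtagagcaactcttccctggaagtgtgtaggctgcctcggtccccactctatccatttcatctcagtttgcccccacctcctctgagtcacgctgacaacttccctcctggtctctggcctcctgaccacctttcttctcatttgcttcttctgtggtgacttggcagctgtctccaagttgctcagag
The Itgam promoter held 1 match on the plus and 2 on the minus strand, and these letters are not in the Itgax window. Other forms of the site were not searched, so this does not show that the Itgax window lacks such sites. Their part in the levels of either gene was not tested. Of all 32851 promoters in the table, 28.3% held at least 1 match. The windows had similar base composition, with 50.3% and 50% G and C.

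The lower leukocyte chains rested on fewer fragments, at least 26 for Itgae and 22 for Itgb7. Itgae gave 2.08, 0.327, 1.57 and 4.69 RPKM across the retro-orbital tumors, 0.671, 0.174 and 0.431 across the cheek tumors, 2.0, 2.46 and 5.53 across the meninges tumors, 0.6 in the vestibular and 1.01 in the trigeminal nerve tumor, with meninges 3 and retro-orbital 4 highest. Itgb7 gave 3.07, 2.29, 5.03 and 7.69 RPKM in retro-orbital tumors 1 to 4, 1.93, 0.8 and 0.623 in cheek tumors 1 to 3, 3.37, 3.40 and 3.63 in meninges tumors 1 to 3, 1.16 in the vestibular nerve tumor and 2.37 in the trigeminal nerve tumor, highest in retro-orbital 4 and lowest in cheek 3. These partners had r = 0.81 and rho = 0.85 across the tumors (permutation tests, n = 12, adjusted p = 0.00720 and 0.00658), and r = 0.74 without retro-orbital 4 and cheek 3 (permutation p = 0.0141). In the 9 tumors with 1 tumor per identifier r was 0.80 with an adjusted p of 0.0529 (permutation test).

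Itgb7 also had r = 0.78 and rho = 0.76 with Ptprc (permutation tests, n = 12, adjusted p = 0.0120 and 0.0291), which without retro-orbital 4 became r = 0.69 with an adjusted p of 0.0617 and in the 9 tumors with 1 tumor per identifier r = 0.76 with an adjusted p of 0.0623 (permutation tests). Itgal, with 0.26 to 4.60 RPKM, was at or above 1 RPKM in 7 tumors. Its r with Itgb2 was 0.40 over all tumors (permutation test, n = 12, adjusted p = 0.348) and 0.85 without retro-orbital 2 (permutation test, n = 11, adjusted p = 0.00292, up to 0.674 over its alternatives). Retro-orbital 2 was the tumor where Itgb2 was 76.9 and Itgal 0.39 RPKM. Itgad stayed at or below 2.55 RPKM with 5 fragments behind its lowest value, and reached 1 RPKM in 3 tumors.

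**Figure D2:**
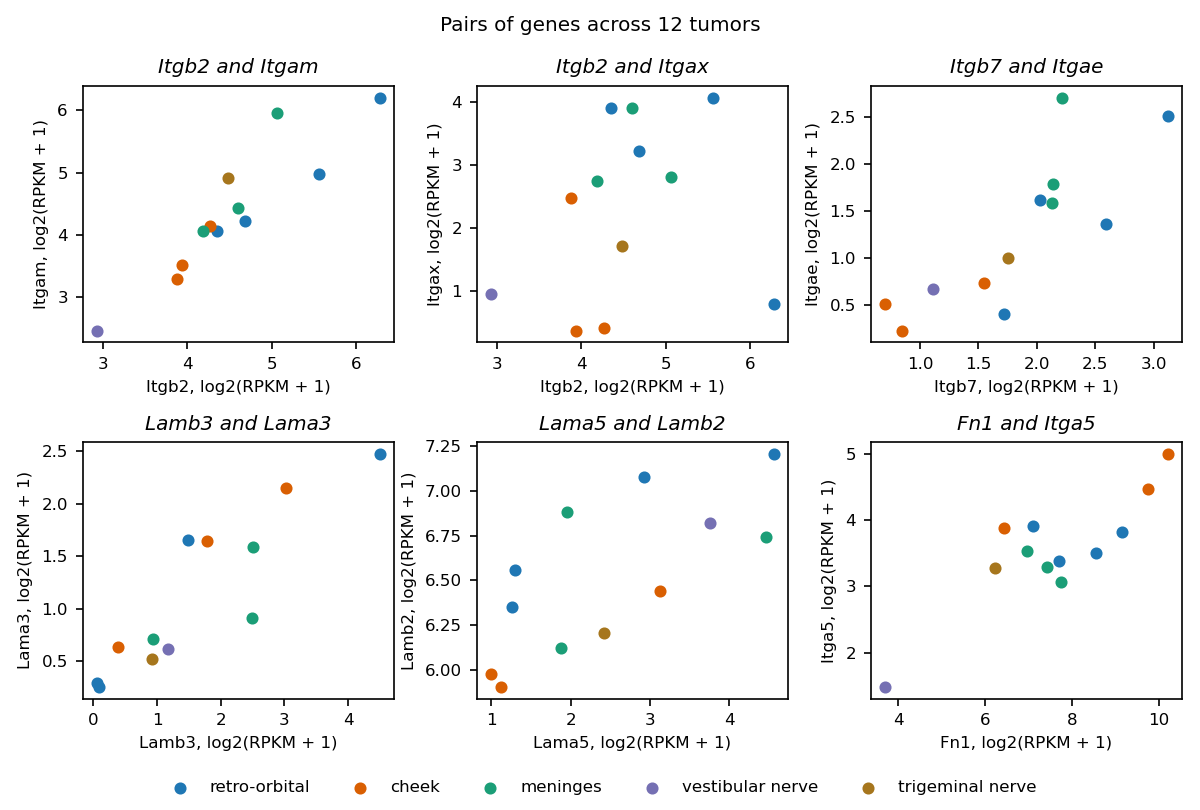
Each panel plots 1 gene against another in the 12 tumors on the log2(RPKM + 1) scale of both axes, 1 point per tumor colored by location. Itgam climbs with Itgb2 (r = 0.92), whereas the retro-orbital tumor with the most Itgb2 lies at the bottom of the Itgax panel, and the Fn1 and Itga5 panel is drawn out by the vestibular nerve tumor.

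Among the laminin alpha chains, which carry the binding sites for integrins, Lama4 of vessels, muscle and peripheral nerve led in 9 of 12 tumors. Its levels were 26.9, 30.8, 23.4 and 19.7 RPKM in retro-orbital tumors 1 to 4, 9.29, 11.2 and 11.7 in cheek tumors 1 to 3, 18.8, 83.8 and 14.7 in meninges tumors 1 to 3, 1.94 in the vestibular nerve tumor and 5.61 in the trigeminal nerve tumor. Meninges 2 was highest and the vestibular nerve tumor lowest, and the share of Lama4 in the summed RPKM of the 5 alpha chains ran from 8.74% to 90.7%. Lama4 did not follow Pecam1 in a way that passed the test (r = 0.46, permutation test, n = 12, adjusted p = 0.263).

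Lama5, the alpha chain of most mature basement membranes, measured 1.46, 1.39, 22.7 and 6.63 RPKM across the retro-orbital tumors, 7.75, 0.988 and 1.18 across the cheek tumors, 21.2, 2.69 and 2.89 across the meninges tumors, 12.5 in the vestibular and 4.33 in the trigeminal nerve tumor. Retro-orbital 3 and meninges 1 were high, and in the vestibular nerve tumor Lama5 was the leading alpha chain with 56.5%. Lama4 was higher than Lama5 in 10 of 12 tumors, which did not pass the test (mean difference 1.55 on the log2(RPKM + 1) scale, SD 1.96, exact sign-flip permutation test, adjusted p = 0.0656). Without the vestibular nerve tumor the difference was 1.89 with an adjusted p of 0.0122 (0.0122 to 0.193 over its alternatives).

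Lama1, the alpha chain of laminin-111, is made early in the embryo and is a component of the pial basement membrane at the surface of the brain. It was found at 0.539, 0.118, 4.10 and 1.24 RPKM in retro-orbital tumors 1 to 4, 1.63, 0.5 and 0.39 in cheek tumors 1 to 3, 46.5, 8.25 and 11.7 in meninges tumors 1 to 3, 4.30 in the vestibular nerve tumor and 30.6 in the trigeminal nerve tumor. The 3 meninges tumors and the trigeminal nerve tumor were above all others, and Lama1 was the leading alpha chain in meninges 1 with 51.9% and in the trigeminal nerve tumor with 70.2%.

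The other alpha chains were low. Lama2, the chain of merosin in muscle and Schwann cell basement membranes, lay between 1.14 and 5.63 RPKM and did not follow Ckm (r = -0.19, permutation test, n = 12, adjusted p = 0.735). Lama3, a chain of laminin-332 in skin, lay between 0.19 and 4.56 RPKM, with retro-orbital 3 and cheek 1 highest. In the order of medians the steps from Lama5 to Lama1 and from Lama1 to Lama2 did not pass the test (adjusted p = 0.659 and 0.626, exact sign-flip permutation tests).

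**Figure D3:**
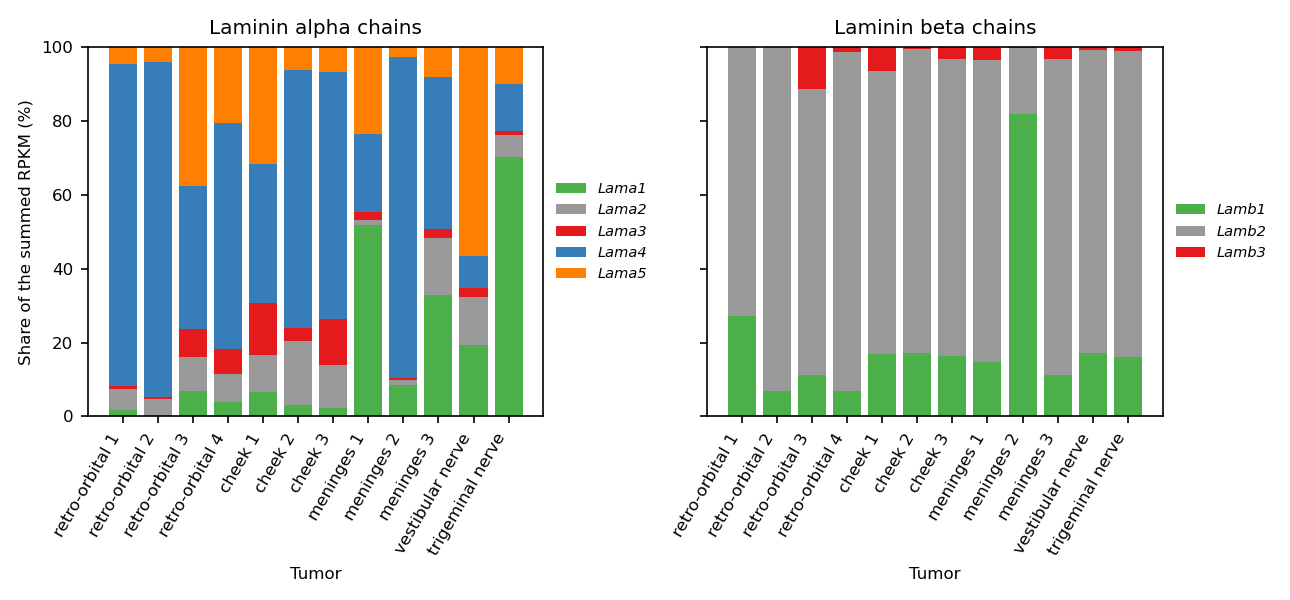
Stacked bars give the share of each chain in the summed RPKM of the laminin alpha chains (left) and beta chains (right) in each tumor. Lama4 fills 90.7% of the alpha bar in retro-orbital 2 and 8.74% in the vestibular nerve tumor, and Lamb2 fills most of each beta bar except that of meninges 2, where Lamb1 holds 82.0%.

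The beta chains had a clearer order. Lamb2, the beta chain of nerve, muscle synapse and vessel laminins, was found at 93.3, 80.7, 147 and 134 RPKM across the retro-orbital tumors, 85.7, 62.0 and 58.8 across the cheek tumors, 106, 68.6 and 117 across the meninges tumors, 112 in the vestibular and 72.9 in the trigeminal nerve tumor. It exceeded Lamb1 in 11 of 12 tumors, by a mean of 2.11 on the log2(RPKM + 1) scale (SD 1.49, exact sign-flip permutation test, adjusted p = 0.00872), and by 2.05 in the 9 tumors with 1 tumor per identifier, which did not pass the test (adjusted p = 0.0698, exact sign-flip permutation test). Lamb2 and Lama5 had r = 0.71 and rho = 0.75 across the tumors (permutation tests, n = 12, adjusted p = 0.0392 and 0.0297), but r was 0.62 without retro-orbital 3 and meninges 1 (permutation p = 0.0606). Its call was lost in the 9 tumors with 1 tumor per identifier (r = 0.73, permutation test, adjusted p = 0.0899) and on leaving out any 1 of 6 tumors, namely retro-orbital 2, retro-orbital 3, cheek 2, cheek 3, meninges 2 or the vestibular nerve tumor (adjusted p of r up to 0.166).

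Lamb1, the beta chain of laminin-111 and laminin-411, was found at 35.1, 5.99, 21.4 and 10.0 RPKM in retro-orbital tumors 1 to 4, 19.0, 13.0 and 12.0 in cheek tumors 1 to 3, 19.2, 316 and 15.5 in meninges tumors 1 to 3, 23.3 in the vestibular nerve tumor and 14.1 in the trigeminal nerve tumor. The exception to the order was meninges 2, where 48068 fragments lay behind the value and every other tumor was at or below 35.1 RPKM. Lama4 and Itga11 were also highest in meninges 2, and Itga9 was second highest there.

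Lamc1, the gamma chain of most laminins, measured 28.3, 22.3, 33.6 and 32.4 RPKM across the retro-orbital tumors, 21.5, 73.3 and 90.6 across the cheek tumors, 33.0, 36.8 and 22.7 across the meninges tumors, 24.8 in the vestibular and 21.0 in the trigeminal nerve tumor. Cheek 3 and cheek 2 were highest, and cheek 1 was among the lowest. The high Lamb1 of meninges 2 had no counterpart in Lamc1, which was 36.8 RPKM there, and r across the tumors was 0.011 with Lamb1 and 0.10 with Lama4 (permutation tests, n = 12, adjusted p = 0.985 and 0.828).

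Lama3 and Lamb3 encode chains of laminin-332 of skin and mucosa. Lamb3 was 0.0355, 0.0572, 21.6 and 1.81 RPKM in retro-orbital tumors 1 to 4, 7.13, 0.309 and 2.45 in cheek tumors 1 to 3, 4.67, 0.9 and 4.60 in meninges tumors 1 to 3, 1.25 in the vestibular nerve tumor and 0.9 in the trigeminal nerve tumor. Retro-orbital 3 was highest, with cheek 1 next, and in retro-orbital 1 and retro-orbital 2 the gene was near the floor with as few as 4 fragments. Lama3 followed Lamb3 with r = 0.89 and rho = 0.90 (permutation tests, n = 12, adjusted p = 0.00212 and 0.00162), r = 0.76 without retro-orbital 3 and cheek 1 (permutation p = 0.0131) and r = 0.90 in the 9 tumors with 1 tumor per identifier. Lamb1 exceeded Lamb3 in 11 of 12 tumors (mean difference 2.80, SD 1.94, exact sign-flip permutation test, adjusted p = 0.00610), with retro-orbital 3 the exception by a narrow margin.

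Krt14, a keratin gene of stratified epithelium, was 60.1 RPKM in retro-orbital 3, 53.8, 32.5 and 269.8 in the cheek tumors and 162.5 in meninges 1, and it did not exceed 1.27 RPKM in the other 7. The 5 epithelial markers summed to 5.15 to 531.2 RPKM in retro-orbital, 60.5 to 361.8 in cheek, 24.5 to 475.0 in meninges, 627.5 in vestibular and 288.8 in trigeminal nerve tumors, and all 5 were above 0 in every tumor. Their part in the Lama3, Lamb3 and Itgb4 values was not tested. Epcam, which was highest in the vestibular nerve tumor with 550.7 RPKM, did not follow Lamb3 or Itgb4 in a way that passed the test (r = 0.48 and 0.27, permutation tests, n = 12, adjusted p = 0.233 and 0.583). No relation was computed with any other epithelial marker. Krt8 and Cdh1 were highest in retro-orbital 3 (128.6 and 84.9 RPKM), as was Lamb3. They were second in retro-orbital 4 (67.0 and 43.0 RPKM), where Itgb4 was highest. Krt8 was also 42.6 RPKM in retro-orbital 1, where Lamb3 was 0.0355, and Krt14 was highest in cheek 3, where Itgb4 was 2.27.

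Whether the members differ by tumor location was tested over the 10 tumors of the retro-orbital, cheek and meninges locations with limma on log2(RPKM + 1), fitted to all 14745 genes that passed the filter. Of the 37 members 36 passed the filter, Lamc3 being too low, and 0 had an adjusted p under 0.05, beside 0.0407% of all genes tested. At an unadjusted p under 0.05 there were 5 of 36 members (13.9%) and 14.3% of all genes, so the share among the members was near the background. These 5 were Lama1, Itga5, Itgb7, Itgb8 and Itgae.

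Lama1 had the smallest p (unadjusted 0.00126, limma adjusted p = 0.164). Its mean was 1.5 ± 1.79 RPKM (SD, n = 4) in the retro-orbital, 0.84 ± 0.69 (n = 3) in the cheek and 22.1 ± 21.2 (n = 3) in the meninges tumors, and the lowest meninges tumor, 8.25 RPKM, was above the highest of both other locations, 4.10 RPKM. Over its alternatives the limma adjusted p was between 0.00027, with the tumor identifier as a random block, and 0.560, without cheek 3.

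Itga5 was next (unadjusted p = 0.00793, limma adjusted p = 0.236), with 11.7 ± 2.19 RPKM (SD, n = 4) in the retro-orbital, 21.9 ± 8.65 (n = 3) in the cheek and 8.91 ± 1.62 (n = 3) in the meninges tumors. Cheek 1 with 13.7 RPKM lay within the retro-orbital range. Itgb7 was 4.52 ± 2.41, 1.12 ± 0.71 and 3.47 ± 0.14 RPKM and Itgb8 3.58 ± 1.52, 1.17 ± 1.10 and 5.90 ± 3.12 RPKM in the same order (limma adjusted p = 0.266 and 0.271). In both genes the cheek tumors were lowest by their means, and for Itgb8 cheek 1 overlapped the retro-orbital range.

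The call depended on the tumors and on the identifier. With the identifier as a random block, 4 members passed the threshold, namely Lama1, Itgb1, Lama4 and Itga2b (limma adjusted p = 0.00027, 0.0145, 0.0341 and 0.0358). Over all alternatives the limma adjusted p of the last 3 reached up to 0.693, 0.693 and 0.964. These 4 were 11.1% of the members tested, beside 19.0% of all genes, 2802 in number, called in that fit, which rested on a correlation of 0.93 estimated from the 2 identifiers shared among these 10 tumors. Without cheek 1, 198 genes and 1 member, Lamc1, passed (limma adjusted p = 0.0470, up to 0.833 over its alternatives). This was 2.86% of the members tested in that fit, beside 1.36% of all genes. The remaining cheek tumors, cheek 2 and cheek 3, then share their identifier.

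**Figure D4:**
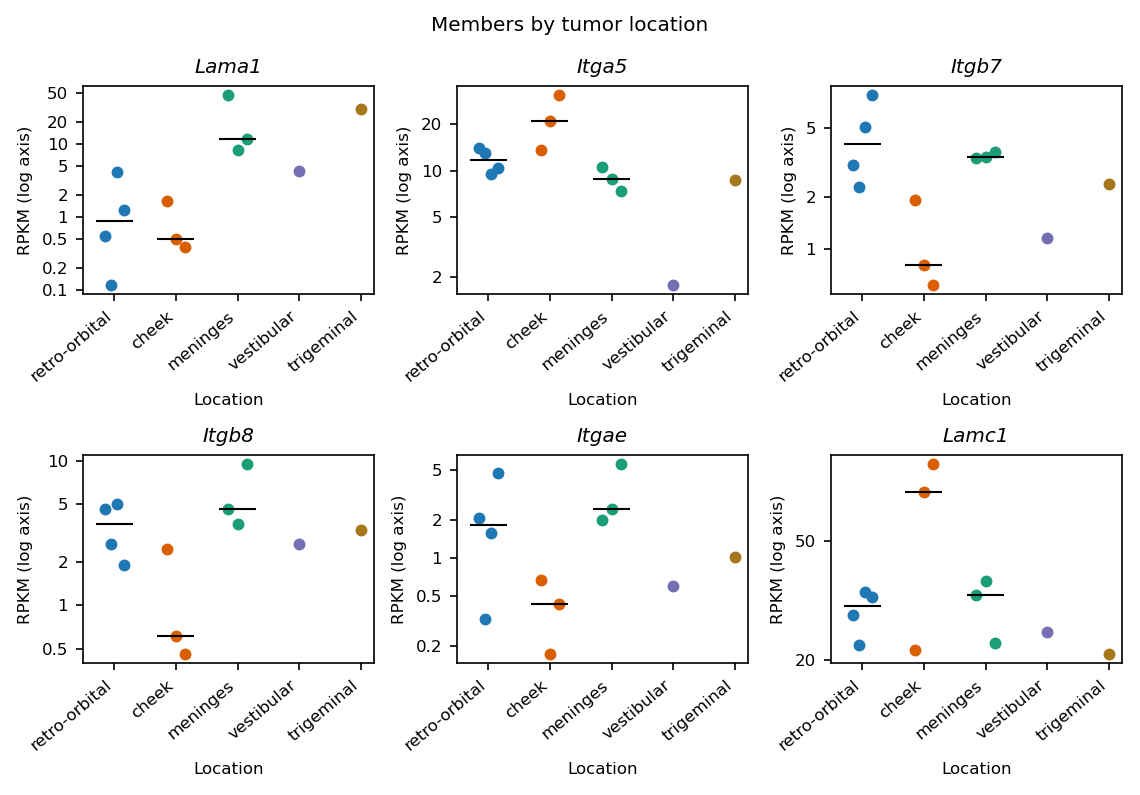
RPKM (log axis) of 6 members in each tumor by location, 1 point per tumor, with a line at the median where a location has 3 or 4 tumors. Lama1 is above 8 RPKM in the 3 meninges tumors and in the trigeminal nerve tumor, and cheek 1 stands apart from the other cheek tumors in Itgb8 and Lamc1.

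The meninges tumors were also set against the 9 tumors of the cranial nerve locations, with limma over 15043 genes. Again 0 of 36 members tested had an adjusted p under 0.05, beside 0.0266% of all genes, and 3 had an unadjusted p under 0.05, or 8.33% of the members beside 8.86% of all genes. The median log2 difference, meninges minus the rest, was 0.22 over the members and 0.12 over all genes, and 21 of the 36 members (58.3%) were higher in the meninges tumors, beside 62.7% of all genes.

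Lama1 was higher in the meninges tumors by 2.58 on the log2(RPKM + 1) scale (SE 0.88, unadjusted p = 0.0120, limma adjusted p = 0.445), and the trigeminal nerve tumor with 30.6 RPKM lay inside the meninges range. Itgae was higher by 1.02 (SE 0.44, limma adjusted p = 0.542) and Itgb8 by 0.97 (SE 0.44, limma adjusted p = 0.558). With the identifier as a block, Lama1 had a difference of 3.22 and a limma adjusted p of 0.0905, and the count of members called remained 0, with limma adjusted p between 0.0905 and 0.891 for Lama1 over its alternatives.

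Glial genes were also high in the meninges tumors. The astrocyte gene Gfap was 0.626, 0.309, 128 and 13.3 RPKM in retro-orbital tumors 1 to 4, 0.589, 0.324 and 0.353 in cheek tumors 1 to 3, 228, 65.1 and 259.8 in meninges tumors 1 to 3, 26.3 in the vestibular nerve tumor and 81.5 in the trigeminal nerve tumor. The 3 Schwann cell and glia markers, Gfap, S100b and Mbp, summed to 97.6 to 308.9 RPKM in the meninges tumors, 4.45 to 149.4 in the retro-orbital, 3.68 to 9.93 in the cheek, 50.1 in the vestibular and 100.5 in the trigeminal nerve tumor. All passed the filter. For meninges against the rest 3 had an unadjusted p under 0.05 (limma), beside 8.86% of all genes tested, and 0 an adjusted one, beside 0.0266%. Gfap, S100b and Lama1 were each higher in the 3 meninges tumors, retro-orbital 3, and the trigeminal and vestibular nerve tumors than in any other tumor. The lowest values there were 26.3, 8.56 and 4.10 RPKM, against at most 13.3, 6.02 and 1.63 elsewhere. Within these tumors the order differed, with Gfap at 128.1 and Lama1 at 4.10 RPKM in retro-orbital 3. Mbp did not separate the tumors in this way. It was 17.7 RPKM in retro-orbital 4, where Lama1 was 1.24, against 6.40 in the trigeminal nerve tumor. No relation of Lama1 with a glial gene was computed, and the part of glial tissue in the Lama1 values was not tested.

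Other genes of the pathway were counted in the same fits. Of the 15 genes of basement membrane and ligands, 15 were tested and 0 called by location (limma, 2 at an unadjusted p under 0.05), and 0 called for meninges against the rest (1 unadjusted). Of the 15 genes of integrin-linked cytoplasmic proteins, 14 were tested and 0 called in either comparison (2 and 1 unadjusted). By location the unadjusted shares of these lists were 13.3% and 14.3%, beside 14.3% of all genes tested. For meninges they were 6.67% and 7.14%, beside 8.86%. Of all genes 0.0407% were called by location and 0.0266% for meninges, so both lists were near the background. Fn1 has been given with Itga5.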

How the data were processed

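The authors removed ribosomal RNA, made stranded libraries, sequenced all 12 as 1 pool, aligned the reads to mm10 with STAR, counted uniquely mapped reads on RefSeq genes with HTSeq and deposited 1 RPKM value per gene and tumor. The submitters' processing notes also name bcl2fastq 2.17, edgeR and limma. Which transcript length was used, and whether counting used strand, is not given in the sources used here. RPKM values are not counts. Dividing by length allows levels of different genes to be compared, but a few very abundant RNAs in 1 tumor lower all its other values. In 27 rows the symbol had turned into a date, and these stayed in the fits unnamed.

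RPKM was analysed as log2(RPKM + 1) with limma 3.58.1 in R 4.3.3 (trended, robust prior variance, Benjamini-Hochberg adjustment at 0.05) over all genes that reached 1 RPKM in 3 or more tumors of a fit. Differences on this scale understate changes of genes with low values. Neighbors in the order of median RPKM within a family (members with a median of at least 1 RPKM) were compared by exact two-sided sign-flip permutation tests. Relations were tested over 25 gene pairs with 100000 permutations, two-sided, and Benjamini-Hochberg adjustment. The recovery of fragment totals, the limma fits, the sign-flip test of the mean and the correlation test were tried on simulated data. Python 3.11.15, numpy 2.4.6, pandas 2.3.3 and matplotlib 3.10.9 were used. The members, lists and pairs were chosen with earlier results of these data known. Values in every tumor are given for the 2 members of each family with the highest median, for members that varied at least 10 times (lowest value set to at least 0.1 RPKM) and reached 5 RPKM, and for the 2 members with the smallest p in each limma test. Other values named were chosen after they were seen. Of the members 1, and of the marker genes 3, are not reported here. The member stays in the counts over all members.

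Depth was recovered from the steps of low RPKM values, each a whole number of fragments. The totals were 13206168 to 57128419 fragments (median 27929726.5), and a length that made all 12 values whole within 0.05 fragments was found for 37 of the 37 members. A value of 3 fragments, taken as the floor, covers counting error only. Nothing in the labels says that tumors came from separate animals, so p-values measure the spread between these tumors. Positions are from GENCODE M21 on GRCm38, the same assembly as mm10.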

Additional observations from a re-analysis of the deposited data

Results flagged for a closer look

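In the 4 retro-orbital tumors, 5 of 36 members had 1 tumor farther from the others than Dixon's 95% limit (on the gap to the nearest tumor divided by the range). For normally spread values of independent genes about 1.8 in 36 would be expected. The ratios were taken on RPKM without logarithms, and the 36 genes share the same 4 tumors. Whether 5 exceeds chance therefore cannot be told from this limit. Retro-orbital 2 was the tumor apart for Itga8 (344.9 RPKM against at most 16.1, ratio 0.957) and for Itga2b (11.7 against at most 4.22, ratio 0.862). Retro-orbital 4 was apart for Itga9 (38.3 against at most 9.08, ratio 0.914). Retro-orbital 3 was apart for Itgb6 (4.14 against at most 0.35, ratio 0.937) and Lamb3 (21.6 against at most 1.81, ratio 0.918), and epithelial keratin genes were also high in that tumor. The part of other tissue in these values was not tested.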

How the results depend on the processing

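No member was called by location in the fits that changed the pseudocount, filter, normalization, prior variance or number of locations. With the tumor identifier as a random block 4 members were called (11.1%, beside 19.0% of all genes). Leaving out 1 tumor gave 0 to 1 members, the 1 being without cheek 1 (2.86%, beside 1.36% of all genes). For meninges against the other locations 0 members were called in all 17 alternatives. Of the order of levels, 7 steps passed, 0 with the median paired difference, 6 in the 9 tumors with 1 tumor per identifier (chosen after seeing the data) and 7 to 8 when leaving out 1 tumor. With the median paired difference these 7 steps had the smallest p that test can give, so its count of 0 does not decide on them. Of the relations 8 passed, 3 in the 9 tumors with 1 tumor per identifier and 5 to 8 when leaving out 1 tumor, 5 being without the vestibular nerve tumor. Several results that did not pass changed sign. Among the order of levels, the median paired difference gave -0.48 for Itga10 against Itga3, 0.46 for Itga2b against Itga11, -0.032 for Itga8 against Itga7, -0.022 for Itgae against Itgal and -0.39 for Lama1 against Lama2, the 9 tumors gave -0.14 for Lama1 against Lama2, and a pseudocount of 0.1 gave 0.073 for Itga2b against Itga11. Leaving out 1 tumor, Itga2b against Itga11 ran from -0.17 to 0.29 and Itgae against Itgal from -0.022 to 0.12. Among the relations, r of Itgb3 and Itga2b was 0.15 with quantile normalization and 0.061 in the 9 tumors, where r was 0.12 for Itgb1 and Itga6 and -0.21 for Tnc and Itga9, and r of Ckm and Lama2 was 0.054 with quantile normalization. Leaving out 1 tumor, r ran from -0.52 to 0.087 for Itgb3 and Itga2b, -0.36 to 0.18 for Itgb1 and Itga6, -0.14 to 0.17 for Lamb1 and Lamc1, -0.015 to 0.23 for Lama4 and Lamc1, -0.091 to 0.43 for Ptprc and Itga4 and -0.075 to 0.34 for Tnc and Itga9. The cause of these changes was not tested. No paired analysis was possible by replicate number because the numbers were given in order of deposit and only name tumors. The identifier was the block used instead. Depth limits the lowest members, with 2 fragments behind the lowest Itgb6 and 4 behind the lowest Lamb3 value.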

Other observations

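The kindlins, which activate integrins from inside the cell, are given here by tumor, with values chosen after they were seen. Fermt2 and Fermt3 were among the genes tested by location and for meninges against the rest, and neither was called (limma adjusted p = 0.222 and 0.373 by location, 0.676 and 0.857 for meninges). Fermt2 was 204 RPKM in cheek 2 and 183.0 in cheek 3, the tumors highest in Itgb3, Itga10, Itga5 and Lamc1, and between 18.7 and 80.5 RPKM in the other 10. Fermt3 of blood cells was between 7.02 RPKM in the vestibular nerve tumor and 36.7 in retro-orbital 4. Fermt1 of epithelia reached 2.13 RPKM in retro-orbital 3, the tumor highest in Lamb3 and Lama3, and stayed below 1 RPKM elsewhere.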
